A study of Mus musculus with 10 samples.

Results

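Immediate early genes are transcribed within minutes of a stimulus without new protein synthesis, and 10 of them, Fos, Fosb, Jun, Junb, Jund, Egr1, Atf3, Ier2, Dusp1 and Nr4a1, are described here in mouse microglia. They were taken as a fixed list of symbols and matched by gene ID to the 46152 genes counted in each library. All 10 symbols matched 1 gene each, and 9 of the 10 passed a filter of more than 1 CPM (counts scaled to a common library size) in at least 3 libraries, as did 28419 genes in all. The tenth, Jund, had 9 counts over all libraries and is treated separately.

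The RNA came from brain microglia of young adult C57BL/6J mice, 5 given vehicle (0.1% Tween 80 with 0.5% Hydroxymethyl Propyl-cellulose) and 5 given GW2580 at 80 mg/kg/d, both by oral gavage over 8 days. GW2580 is an orally available inhibitor of the kinase activity of CSF1R, the receptor for the microglial growth factors CSF1 and IL-34, and the comparison asked how the drug changed the microglial transcriptome. Each group held 2 male and 3 female mice and 1 library per mouse, and the labels name no transgene or other genotype. Brains were digested with Accutase, a warm enzyme mixture, and the cells were enriched on a Percoll gradient and then selected magnetically for the surface protein CD11b, which monocytes, granulocytes and border macrophages also carry.

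The products of these genes act at successive steps of one fast response. Kinases of the MAPK family and the cAMP pathway switch on Fos, Jun and Egr1 through factors already bound at their promoters. FOS and JUN proteins pair to form the transcription factor AP-1, ATF3 joins the same dimer network and often represses, and EGR1 and NR4A1 are separate DNA-binding regulators. DUSP1 is a phosphatase that removes the activating phosphates from MAP kinases and so ends the signal. In microglia these genes are known both as targets of growth factor receptors such as CSF1R and as genes that rise while brain tissue is taken apart at warm temperature, so that their level in isolated cells can hold both. Every library here went through the same digestion, and none was made without it, so the dissociation response and the state of the cells in the brain cannot be told apart.

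Some members carry letters in their promoters that the cAMP response factor CREB is known to read. RefSeq promoter windows (GRCm38.p6, 250 bases before the annotated start used here) were in the table for 8 of the 10 genes, all but Egr1 and Ier2. Those of Jun, Junb, Fos, Nr4a1 and Dusp1 are shown because they differ most in this respect and because the results below turn on these genes. The windows are chr4:95052223-95052472 on the minus strand for Jun, chr8:84978749-84978998 on the minus strand for Junb, chr12:85473640-85473889 on the plus strand for Fos, chr15:101266596-101266845 on the plus strand for Nr4a1 and chr17:26508473-26508722 on the minus strand for Dusp1, each printed 5′ to 3′ along the gene. The Nr4a1 window lies inside the annotated span of its gene (101253902 to 101274795), while those of Jun, Junb, Fos and Dusp1 adjoin the 5′ end of theirs. Capitals mark the cAMP response half-site TGACG on either strand, and in Dusp1 also the full element TGACGTCA, which overlaps it.
Jun: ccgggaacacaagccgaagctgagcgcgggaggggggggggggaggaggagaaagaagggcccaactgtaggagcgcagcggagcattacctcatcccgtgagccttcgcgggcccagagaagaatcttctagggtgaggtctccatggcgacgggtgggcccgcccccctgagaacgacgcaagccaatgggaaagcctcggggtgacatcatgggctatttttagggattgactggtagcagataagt
Junb: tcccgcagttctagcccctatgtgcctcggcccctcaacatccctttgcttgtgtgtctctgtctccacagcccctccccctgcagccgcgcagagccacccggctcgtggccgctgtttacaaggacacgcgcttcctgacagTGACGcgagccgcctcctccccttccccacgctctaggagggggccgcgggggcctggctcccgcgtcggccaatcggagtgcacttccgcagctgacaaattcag
Fos: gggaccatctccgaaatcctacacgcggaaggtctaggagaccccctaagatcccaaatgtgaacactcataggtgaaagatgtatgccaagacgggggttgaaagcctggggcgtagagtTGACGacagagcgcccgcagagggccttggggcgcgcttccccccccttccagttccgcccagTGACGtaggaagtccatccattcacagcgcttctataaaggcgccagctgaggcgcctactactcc
Nr4a1: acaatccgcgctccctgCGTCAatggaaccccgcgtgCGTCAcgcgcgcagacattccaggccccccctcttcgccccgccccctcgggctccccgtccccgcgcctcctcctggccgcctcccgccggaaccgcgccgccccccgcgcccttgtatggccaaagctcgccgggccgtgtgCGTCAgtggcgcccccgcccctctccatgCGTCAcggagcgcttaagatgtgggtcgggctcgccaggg
Dusp1: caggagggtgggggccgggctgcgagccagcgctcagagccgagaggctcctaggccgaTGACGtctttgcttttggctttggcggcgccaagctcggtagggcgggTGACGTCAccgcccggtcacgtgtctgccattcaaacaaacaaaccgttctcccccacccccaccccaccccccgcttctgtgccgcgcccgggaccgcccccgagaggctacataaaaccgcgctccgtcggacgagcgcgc

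The half-site TGACG was found in 6 of the 8 windows (Atf3, Dusp1, Fos, Fosb, Junb and Nr4a1), and in 17.8% of all 32851 promoter windows of this length in the table. Nr4a1 held 4 matches, Dusp1 held 3 (counting both strands of its full element) and Fos held 2, while none of the exact letters stood in the Jun window. The Jun window does hold tgacatca, which differs from the full element by a single letter and is not counted by an exact search. The full element TGACGTCA was in the Dusp1 window and in 1.55% of all windows. The AP-1 site TGANTCA matched in 0 of the 8 windows, against 6.75% of all windows. The CArG box, which the serum response factor reads, also matched in 0 of the 8, against 1.47% of all. Sequence outside the windows was not searched, and Egr1 and Ier2 had no window. These counts of 0 therefore do not show that the genes lack either site. TATAAA was in the Fos window (12.4% of all), CCAAT in those of Jun and Junb (33.8% of all), and the EGR site GCGNGGGCG in those of Fosb and Nr4a1 (4.7% of all). The GC box GGGCGG was in 6 of the 8 windows, against 32.7% of all. The windows of all genes were not matched to those of the members for base composition. All motifs were searched on both strands, and a match describes the letters of the window only.

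The early response genes were among the most abundant RNAs of these cells. Together the members made up 2.85 ± 0.503% of all fragments assigned to genes with vehicle (SD, n = 5, range 2.10 to 3.33%) and 4.21 ± 0.832% with GW2580 (n = 5, range 3.12 to 5.03%). These shares sit on 12550418 to 20854218 assigned fragments per vehicle library and 13228819 to 26079343 per GW2580 library, so counting error is small beside the spread between mice. After TMM, a scaling described below, the members summed to 24641 to 34881 CPM with vehicle and 22354 to 72826 CPM with GW2580. The GW2580 range then held the whole vehicle range.

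Levels were compared between genes per length of exon, as RPKM with TMM scaling (CPM divided by the exon length in kilobases). By the mean of log2 RPKM over the 10 libraries the order was Junb, Jun, Fos, Dusp1, Egr1, Ier2, Atf3, Fosb and Nr4a1. Jun ranked from 3 to 29 among all genes tested depending on the library, Junb from 6 to 26, Fos from 11 to 24 and Dusp1 from 13 to 34. Egr1 (rank 15 to 83), Ier2 (28 to 61) and Atf3 (46 to 180) followed, and Fosb (654 to 2101) and Nr4a1 (468 to 2527) stood far lower. Neighbours in this order were not always apart. Junb was above Jun in 6 of 10 libraries, Jun above Fos in 4, Egr1 above Ier2 in 5 and Fosb above Nr4a1 in 5, whereas Fos was above Dusp1, Dusp1 above Egr1, Ier2 above Atf3 and Atf3 above Fosb in all 10. The mean Junb level was 3683 RPKM and the mean Fosb level 53.7 RPKM.

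**Figure D1:**
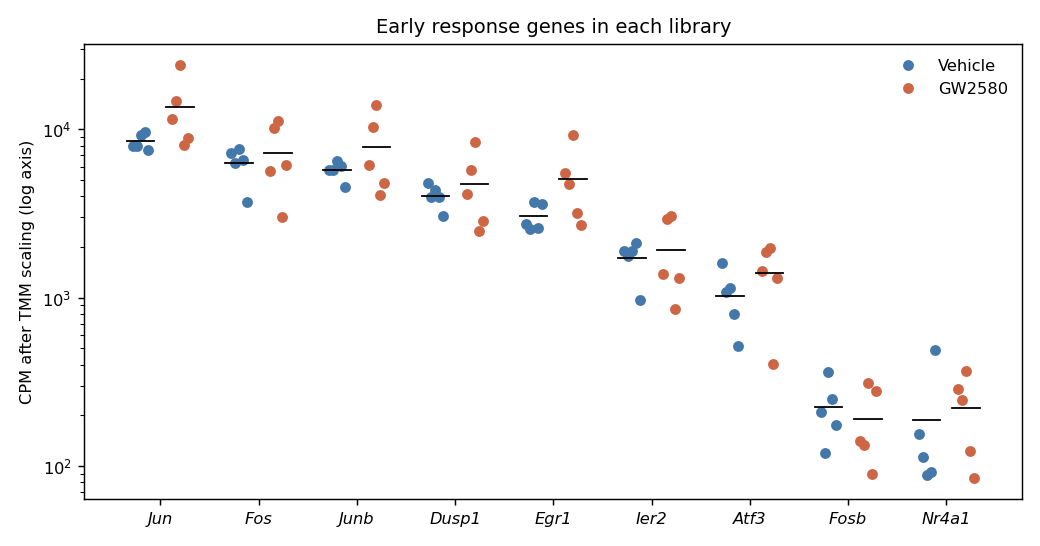
Level of the 9 members that passed the filter in each of the 10 libraries, in CPM after TMM scaling on a log axis, with 1 point per mouse and a black line at the mean of each group of 5. The GW2580 points (orange) spread more widely than the vehicle points (blue) for Jun, Junb, Dusp1 and Egr1 at this scaling, and the groups overlap for every gene.

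Microglial markers were present in every library: the summed level of the 10 microglia genes of the marker list was 12675 to 28632 CPM with vehicle and 17915 to 59102 CPM with GW2580. Markers of other cells were unequal. Oligodendrocyte genes summed to 17905 CPM in Vehicle 2 and 4357 CPM in Vehicle 5 against 163 to 335 CPM in the other vehicle libraries, and to 178 to 1779 CPM with GW2580. Astrocyte genes followed (3069 and 1707 CPM in Vehicle 2 and Vehicle 5, 195 to 645 CPM elsewhere), and monocyte and granulocyte genes ranged from 425 to 26150 CPM with vehicle and from 525 to 10733 CPM with GW2580. Of unique fragments, 47.7 to 59.8% lay on no exon with vehicle and 47.1 (GW2580 3) to 70.8% (GW2580 4) with GW2580. TMM, the scaling step of edgeR that centres most genes, gave GW2580 3 the smallest factor (0.691) and GW2580 4 the largest (1.61), so these libraries are raised and lowered most by it. The part of these differences in the results below was not tested, except where a value without a library or with a covariate is given. In these bulk samples, fewer cells of a type and less RNA per cell cannot be told apart.

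None of the 9 members tested was called between GW2580 and vehicle, where a call needs more than a 2-fold difference with p below 0.05, not adjusted, in edgeR's quasi-likelihood test, the thresholds of the study. Of all genes tested 10.7% were called, 4.01% higher and 6.7% lower with GW2580. At p under 0.05 and any fold change the members again numbered 0 of 9, against 14.7% of all genes. After Benjamini-Hochberg adjustment in edgeR 0 genes had an adjusted p under 0.05 (0.0%), against 4186 at an unadjusted p under 0.05, while DESeq2 gave 177 genes and edgeR's likelihood ratio test 53. The median log2 fold change of the members was 0.24, beside -0.03 over all genes tested, and 8 of 9 were above 0, as were 48.4% of all genes tested. Without GW2580 3 the median was -0.011 and 4 of 9 were above 0. The 10 microglia markers had a median of 0.45, with 9 of 10 above 0.

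The Jun genes encode the obligate partners of AP-1. Jun (gene ID 16476, chromosome 4, 95049036 to 95052222, minus strand, 1 exon) read 8008, 7913, 9229, 9657 and 7544 CPM in Vehicle 1 to 5 and 11452.5, 14813, 24227, 8120.0 and 8932 CPM in GW2580 1 to 5. GW2580 1, 2 and 3 lay above every vehicle library and GW2580 4 and 5 within the vehicle range. The group means were 8470.2 ± 918 and 13509 ± 6534 CPM (SD, n = 5 each), a log2 fold change of 0.67 (SE 0.48, adjusted p = 0.511 in edgeR). An exact two-sided permutation test of the difference in mean log2 CPM gave p = 0.0873.

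Junb (gene ID 16477, chromosome 8, 84976909 to 84978748, minus strand, 1 exon) encodes a JUN protein that can oppose JUN. It read 5697, 5697, 6495, 6077 and 4571 CPM with vehicle and 6143, 10257, 13935, 4082 and 4811 CPM with GW2580. Only GW2580 2 and 3 were above all vehicle libraries, and GW2580 4 was below all of them. The log2 fold change was 0.46 (SE 0.47, adjusted p = 0.658 in edgeR, exact permutation p = 0.413).

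Jund (gene ID 16478, chromosome 8, 70697739 to 70700616, plus strand), known as a JUN gene that is expressed steadily, was counted 0 to 3 times per library. Its exons are annotated on 2 sequences of the assembly, the chromosome and a second copy, and fragments aligned to more than 1 place were not counted. Among protein-coding genes annotated on 2 or more sequences, 440 of 1117 (39.4%) had at most 10 counts over all libraries, against 675 of 20748 (3.25%) annotated on 1 sequence. The counts therefore give no level for Jund, in either group. The same holds for Hspa1a and Hspa1b, heat shock genes linked to dissociation, and for the cytokine gene Tnf, which have 4 annotated copies each and 0 counts.

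The Fos genes encode the other partner of AP-1. Fos (gene ID 14281, chromosome 12, 85473890 to 85477274, plus strand, 4 exons) read 7231, 6292, 7637, 6589.9 and 3717 CPM with vehicle and 5658, 10138, 11223, 2996 and 6133 CPM with GW2580. Vehicle 5 was low beside the other vehicle libraries, and GW2580 4 was the lowest of all 10. The means were 6293 ± 1534 and 7229.6 ± 3391 CPM (SD, n = 5 each), a log2 fold change of 0.20 (SE 0.48, adjusted p = 0.866 in edgeR, exact permutation p = 0.786). Without GW2580 3 the log2 fold change was -0.013.

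Fosb (gene ID 14282, chromosome 7, 19302696 to 19310118, minus strand, 4 exons), the FOS relative known for long-lived forms in stimulated neurons, read 209.6, 119.5, 361, 250.5 and 175 CPM with vehicle and 140.0, 133, 311, 89.0 and 278 CPM with GW2580. No order of the groups was visible, and Fosb alone of the 9 had a log2 fold change below 0 (-0.23, SE 0.42, adjusted p = 0.819 in edgeR, exact permutation p = 0.500); it was 0.011 without Vehicle 3.

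Egr1 (gene ID 13653, chromosome 18, 34861207 to 34864956, plus strand, 2 exons) encodes a zinc finger factor downstream of ERK. It had the largest log2 fold change of the members. The libraries read 2727, 2554, 3692.5, 2602 and 3599 CPM with vehicle and 5515, 4719, 9281, 3178 and 2709 CPM with GW2580. GW2580 1, 2 and 3 were above all vehicle libraries. The means were 3035 ± 562 and 5080.5 ± 2608 CPM (SD, n = 5 each), a log2 fold change of 0.74 (SE 0.45, adjusted p = 0.446 in edgeR, exact permutation p = 0.111).

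Atf3 (gene ID 11910, chromosome 1, 191170296 to 191183333, minus strand, 4 exon blocks) encodes a stress-induced repressor. It read 1609.5, 1084, 1139, 793 and 514 CPM with vehicle and 1447, 1872, 1982, 405 and 1311 CPM with GW2580. The vehicle libraries alone spanned from 514 to 1609.5 CPM, GW2580 4 fell below them, and the groups overlapped (log2 fold change 0.45, SE 0.47, adjusted p = 0.664 in edgeR, exact permutation p = 0.468).

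Nr4a1 (gene ID 15370, chromosome 15, 101253902 to 101274795, plus strand, 13 exon blocks), an orphan nuclear receptor that restrains inflammatory genes in myeloid cells, was the most variable member. It read 154.5, 113, 87.9, 91.5 and 488 CPM with vehicle and 287, 247.5, 364, 122 and 84.4 CPM with GW2580. Vehicle 5 held the highest value of all 10 libraries, and GW2580 5 the lowest. The highest library was 5.78 times the lowest, and the log2 fold change over all libraries was 0.24 (SE 0.54, adjusted p = 0.856 in edgeR, exact permutation p = 0.532). Without Vehicle 5 it was 0.98 (unadjusted p = 0.0382 in edgeR), short of a call that 6.18% of genes then passed in this direction, and without Vehicle 5 and GW2580 5 it was 1.09 (unadjusted p = 0.0105 in edgeR), past the call thresholds as were 7.08% of genes in that direction and fit. Vehicle 5 and GW2580 5 were left out because each lay nearer the other group, which raises calls by construction, so this call is no support for a difference. It was -0.011 without GW2580 3. Vehicle 5 is also a library with high glial markers.

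Ier2 (gene ID 15936, chromosome 8, 84661331 to 84662852, minus strand, 1 exon) encodes a small nuclear protein induced by growth factors. It read 1895, 1776, 1889, 2096 and 968 CPM with vehicle and 1378, 2945, 3059, 859 and 1316 CPM with GW2580. As for Fos, Vehicle 5 stood below the other vehicle libraries, and GW2580 2 and 3 were the highest. The log2 fold change was 0.15 (SE 0.45, adjusted p = 0.897 in edgeR, exact permutation p = 0.921), and it lay between -0.085 and 0.34 over the alternatives.

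Dusp1 (gene ID 19252, chromosome 17, 26505591 to 26508472, minus strand, 4 exons), the feedback phosphatase, read 4792, 3959, 4349.9, 3981.5 and 3067 CPM with vehicle and 4152, 5698, 8444.5, 2502.5 and 2867.5 CPM with GW2580. Both the highest and the lowest values were from GW2580 mice, and 2 GW2580 libraries lay below every vehicle library. The log2 fold change was 0.23 (SE 0.45, adjusted p = 0.832 in edgeR, exact permutation p = 0.770), and it was -0.081 without GW2580 3.

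The spread of the members within each group depended on the scaling. The SD of log2 CPM after TMM was 0.15 with vehicle and 0.63 with GW2580 for Jun, 0.19 and 0.75 for Junb, 0.24 and 0.72 for Dusp1 and 0.26 and 0.70 for Egr1. With library size alone the same SDs were 0.23 and 0.28 for Jun, 0.26 and 0.38 for Junb, 0.31 and 0.37 for Dusp1 and 0.26 and 0.47 for Egr1. For Fos the order turned, from 0.42 and 0.76 after TMM to 0.49 and 0.37 with library size alone, and for Nr4a1 the vehicle SD was the larger in both (1.02 and 0.89, then 0.96 and 0.72). No test of the difference in spread was made.

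How the libraries were scaled moved Jun and Egr1. As a share of all assigned fragments, without TMM, Jun took 0.644 to 0.939% with vehicle and 0.980 to 1.67% with GW2580, so all 5 GW2580 libraries lay above all 5 vehicle libraries. With library size alone the log2 fold change of Jun was 0.79 (unadjusted p = 0.0117 in edgeR, exact permutation p = 0.00794, the smallest that 5 against 5 can give). That of Egr1 was 0.88 (unadjusted p = 0.00862 in edgeR, exact permutation p = 0.0238), with 0.224 to 0.352% of fragments with vehicle and 0.297 to 0.677% with GW2580. Junb reached 0.55 (unadjusted p = 0.0694 in edgeR, exact permutation p = 0.0397), with 4 of 5 GW2580 libraries above all vehicle libraries. Fosb stayed below 0 at -0.12. No member was called under this scaling either, where 7.47% of genes were called higher.

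Library size alone also moved all genes. The median log2 fold change over all genes was then 0.23, 2123 genes were called higher and 875 lower, against 1141 and 1905 after TMM, and 16.6% of genes had p under 0.05. Genes whose groups did not overlap with GW2580 higher made up 2.16% of those tested with library size alone and 2.04% after TMM. Relative to the shift of the median gene, Jun was 0.56 and Egr1 0.65 higher with library size alone. After TMM these values were larger, at 0.70 for Jun and 0.77 for Egr1.

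**Figure D2:**
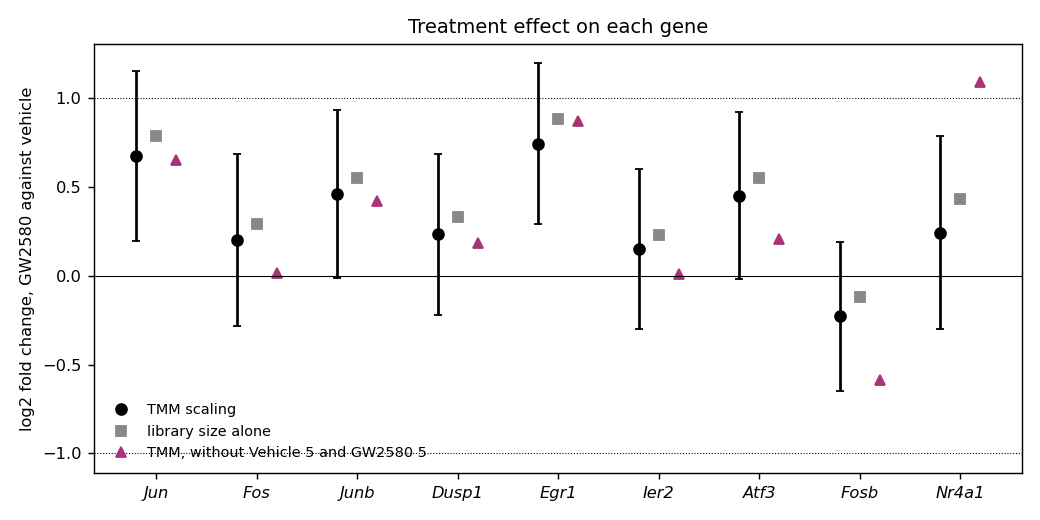
Log2 fold change of each member, GW2580 against vehicle, after TMM with its SE (black), with library size alone (grey) and after TMM without Vehicle 5 and GW2580 5 (purple), with dotted lines at a fold change of 2. Of the black SE bars only those of Jun and Egr1 stay clear of 0, and Nr4a1 alone passes the dotted line in 1 of the 3 fits.

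The share of unique fragments on no exon was 55.2 ± 5.21% in vehicle libraries and 61.3 ± 9.68% in GW2580 libraries (SD, n = 5 each), with overlapping groups and the lowest value in GW2580 3. With this share as a covariate the log2 fold change of Egr1 was 0.94 (unadjusted p = 0.0244 in edgeR) and that of Jun 0.82 (unadjusted p = 0.0507 in edgeR), in a fit where 11.3% of genes had p under 0.05. With the averaged level of the glial and neuronal markers as covariate they were 0.71 and 0.59 (unadjusted p = 0.177 and 0.273 in edgeR). Without GW2580 3 the log2 fold changes fell to 0.41 for Egr1, 0.36 for Jun and 0.15 for Junb, and without GW2580 4 they were 0.88, 0.82 and 0.63.

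**Figure D3:**
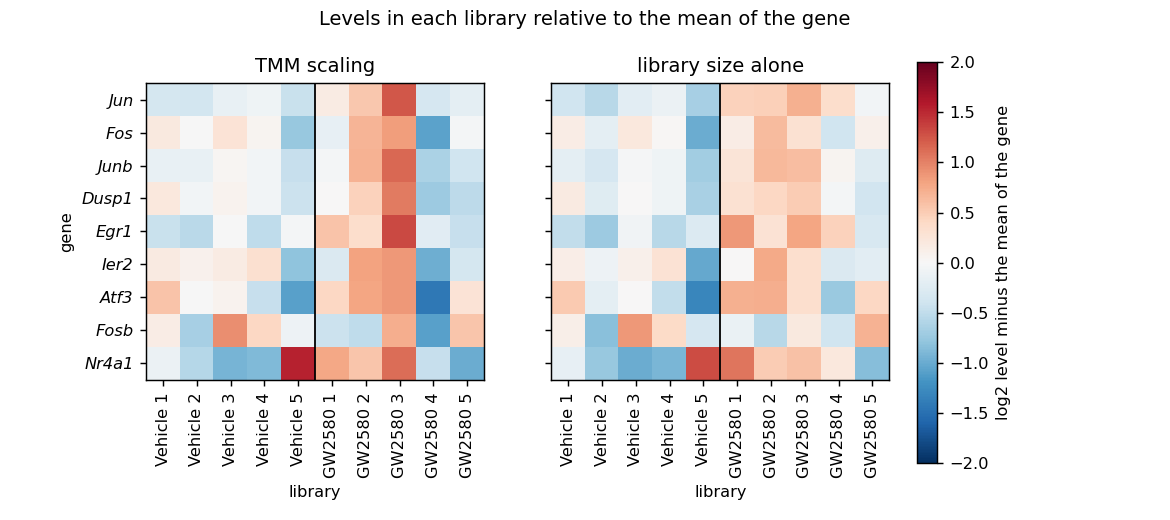
Log2 level of each member (rows) in each library (columns) minus the mean of the gene over the 10 libraries, after TMM scaling on the left (log2 CPM) and with library size alone on the right (log2 share of assigned fragments), with a black line between vehicle and GW2580. GW2580 3 is high and GW2580 4 low for nearly every member on the left, Vehicle 5 is low for Fos, Ier2 and Atf3 and high for Nr4a1 on both sides, and Jun is above its mean in 4 of 5 GW2580 libraries on the right.

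Ratios of a pair of members within a library do not depend on scaling, so they were used to compare members with each other. All 36 pairs were compared, in a step chosen after the data were seen. The log2 ratio of Jun to Dusp1 was 0.74 to 1.30 with vehicle and 1.38 to 1.70 with GW2580, so the groups did not overlap. Its difference was 0.46 (exact permutation p = 0.00794, adjusted p = 0.286 over the 36 pairs), and it was the one pair of 36 without overlap. Jun relative to Junb differed by 0.25 (exact permutation p = 0.0317), Junb relative to Dusp1 by 0.21 (exact permutation p = 0.0317) and Jun relative to Ier2 by 0.54 (exact permutation p = 0.0476), each with an adjusted p of 0.381. No other pair had an unadjusted p under 0.05 and 0 pairs passed adjustment, so none of these differences held once the number of pairs was allowed for.

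The ratios varied to different degrees over the libraries. On the log2 scale the SD over all 10 libraries was 0.16 for Junb to Dusp1, 0.27 for Fos to Dusp1 and 0.72 for Fosb to Jun. The log2 ratio of Fosb to Jun was -5.34 ± 0.491 in vehicle libraries and -6.19 ± 0.692 in GW2580 libraries (SD, n = 5 each), a difference of -0.85 (exact permutation p = 0.0714, adjusted p = 0.381), and that of Egr1 to Dusp1 was -0.41 ± 0.417 and 0.11 ± 0.287 (exact permutation p = 0.0556, adjusted p = 0.381).

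**Figure D4:**
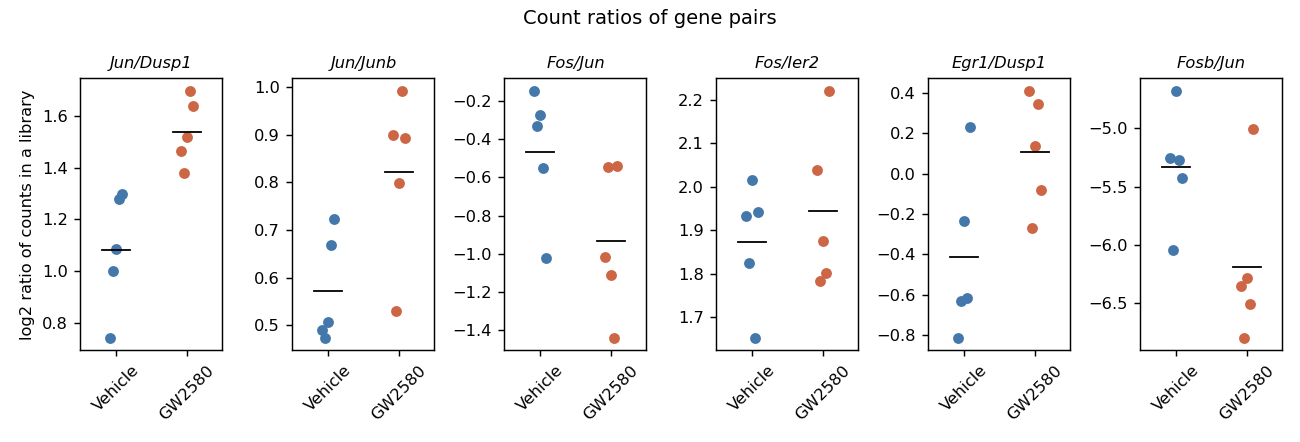
Log2 ratio of the counts of 6 pairs of members in each library, with 1 point per mouse, a black line at the group mean and a separate vertical scale in each panel. The vehicle (blue) and GW2580 (orange) points are apart for Jun to Dusp1, from 0.74 to 1.30 against 1.38 to 1.70, and overlap in the other 5 panels.

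Across the 10 libraries many pairs of members were correlated. After TMM the median Pearson r of log2 CPM over the 36 pairs was 0.66 (range -0.17 to 0.97), and 17 pairs had an adjusted permutation p under 0.05 (100000 permutations, Benjamini-Hochberg over 36). With library size alone the median was 0.54 (range -0.47 to 0.94) and 12 pairs passed. By Pearson r after TMM, Fosb passed with no other member, Nr4a1 with Egr1 alone (r = 0.69), and Egr1 with Jun, Junb and Nr4a1 but not with Fos (r = 0.45), Atf3 (r = 0.45), Ier2 (r = 0.42) or Dusp1 (r = 0.70). Fewer pairs passed by Spearman rho at either scaling. Egr1 with Jun, Junb and Nr4a1 then did not pass after TMM (adjusted permutation p of rho = 0.133, 0.167 and 0.135). Without the 2 libraries farthest from the median their Pearson r was 0.60, 0.18 and 0.55. Libraries share their scaling factor and depth across genes, which adds to such correlations. The same values were not computed over pairs of other genes. Whether the members were more correlated than other genes is therefore not known.

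The closest pair was Fos and Ier2 (Pearson r = 0.97 with permutation p = 3e-05 and Spearman rho = 0.94 with permutation p = 0.00023, or 0.0009 and 0.00828 once adjusted). Leaving out the 2 libraries farthest from the median left r = 0.94, and with library size alone r was 0.94. Junb and Dusp1 had r = 0.95 (permutation p = 5e-05, rho = 0.87, permutation p = 0.00216, adjusted p = 0.0009 and 0.0194), which was 0.91 without the 2 farthest libraries. Jun and Junb had r = 0.93 (permutation p = 0.00046, rho = 0.82, permutation p = 0.00545, adjusted p = 0.00331 and 0.0245), but r was 0.57 without the 2 farthest libraries and so rests in part on them. With library size alone the Jun and Junb value was 0.92, and 0.84 without 2 libraries. Fos and Nr4a1 showed no stable relation after TMM (r = 0.04, permutation p = 0.903, rho = -0.0061, permutation p = 1), and r was -0.28 with library size alone (permutation p = 0.461). Without the 2 farthest libraries r was -0.44 after TMM and 0.53 with library size alone, so these values rest on single libraries.

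Genes outside the list were ranked by how closely their profile over the libraries followed that of the members. Each member's log2 CPM was standardised over the 10 libraries and averaged, and 17746 other protein-coding genes were ranked by Pearson r with this mean. The 5 highest were Irf1 (r = 0.99), an interferon-induced transcription factor, Tpm3 (0.98), a tropomyosin, Zfp36 (0.98), which encodes an mRNA-destabilising protein and is an immediate early gene itself, Neurl3 (0.97), a ubiquitin ligase gene, and Irf8 (0.97), a lineage factor of microglia. Once group means were removed the 5 highest were Ufl1 (r = 0.99), Zfp36 (0.99), Irf1 (0.99), Nmd3 (0.99) and Tpm3 (0.98). Irf1, Zfp36 and Tpm3 were in both lists. Their own log2 fold changes were 0.43, 0.27 and 0.30, none with p under 0.05. The ranking was made after TMM only, where all genes of a library share a scaling factor. It was not repeated with library size alone, and the part of the shared scaling in these r values was not tested.

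With a term for sex, 0 of 9 members had p under 0.05 (2.02% of all genes), and the interaction of sex with treatment gave 0 of 9 (2.52% of all genes). The largest difference was in Fosb, at 150.5 ± 40.3 CPM in 4 male and 244 ± 98.1 CPM in 6 female mice (SD, female minus male 0.70 on the log2 scale, SE 0.42, unadjusted p = 0.119 in edgeR). Without GW2580 4 this Fosb difference was 0.86 (unadjusted p = 0.0307, adjusted p = 0.998 in edgeR), 1 of 9 members against 2.09% of all genes. Nr4a1 had the largest interaction, -1.22 (SE 1.18, unadjusted p = 0.318 in edgeR).

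Genes around the members were read from 7 lists with 110 genes, of which 106 passed the filter. Of these, 4 were called higher and 1 lower, 5 of 106, against 10.7% of all genes. The count rests on single libraries: it was 17 without Vehicle 5, 13 without GW2580 5, 20 without both and 13 without Vehicle 2 and Vehicle 5, in fits that called 12.9, 17.6, 22.3 and 8.5% of all genes. It was 2, 3, 2, 3 and 1 without Vehicle 2, Vehicle 3, Vehicle 4, GW2580 1 and GW2580 3 in turn.

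Among 42 other immediate early genes, 41 were tested, 3 were called higher and 1 lower, and the median log2 fold change was 0.15. Nfkbiz, a nuclear regulator of NF-kB targets, read 231, 132, 247, 152 and 313 CPM with vehicle and 573, 395, 858.5, 264 and 243 CPM with GW2580 (log2 fold change 1.12, SE 0.42, p = 0.0198, adjusted p = 0.281 in edgeR, exact permutation p = 0.0476). Ier5, an early response gene related to Ier2, rose by 1.08 on the log2 scale (SE 0.43, adjusted p = 0.293 in edgeR, exact permutation p = 0.0794), its mean going from 537 ± 119 to 1133 ± 623 CPM (SD over 5 mice). Ptgs2, which encodes the prostaglandin enzyme COX-2, rose by 1.20 on the log2 scale (SE 0.49, adjusted p = 0.295 in edgeR, exact permutation p = 0.0794), its mean going from 6.79 ± 3.84 to 15.6 ± 9.46 CPM (SD over 5 mice). In each of these 3 genes GW2580 1, 2 and 3 were above all vehicle libraries, as for Jun and Egr1. The 3 genes were named because they were called, which favours such a pattern, and its share over all genes was not computed. Ccn2, named after its values were seen, was called lower (log2 fold change -2.15) on 426 counts in Vehicle 5 and 9 to 39 in the other 9 libraries.

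The most abundant genes of that list were not called. Zfp36 read 4868 ± 655 and 5877 ± 2928 CPM, Btg2, an antiproliferative gene, 4147 ± 1554 and 3871 ± 1706 CPM, and the vascular and myeloid factor gene Klf2 1741.5 ± 383 and 2539 ± 1366 CPM (SD, n = 5 each). Their log2 fold changes were 0.27, -0.10 and 0.54.

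AP-1 and bZIP partners, such as the small Maf genes that dimerise with FOS, gave 0 calls of 11, with a median log2 fold change of 0.08. Mafg read 135 ± 25.4 and 143 ± 69.5 CPM, Mafk 74.7 ± 48.3 and 94.2 ± 48.9 CPM and Jdp2 43.1 ± 5.79 and 46.1 ± 26.3 CPM (SD, n = 5 each).

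Of 21 upstream kinases and factors, 1 was called higher and 0 lower, and the median was 0.17. That gene was Rps6ka1, which encodes the ERK-activated kinase RSK1. It read 314, 271, 334, 317 and 517 CPM with vehicle and 731, 578, 1426, 557 and 265 CPM with GW2580, with 4 GW2580 libraries above all vehicle libraries and GW2580 5 below them (log2 fold change 1.02, SE 0.44, p = 0.0343, adjusted p = 0.309 in edgeR, exact permutation p = 0.0952). Map2k1, the MEK1 gene, had a log2 fold change of 0.71 (unadjusted p = 0.0678 in edgeR) and Map2k2, the MEK2 gene, one of -0.12. The EGR1 co-repressor genes Nab1 and Nab2 and 3 relatives of Dusp1 gave 0 calls of 5, with a median of 0.06.

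The heat shock and chaperone list, another known part of the dissociation response, gave 0 calls of 12 tested and 14 listed, with a median of 0.09. Hspa5 read 1866 ± 199 and 2509.5 ± 1109 CPM, Hspa8 1739 ± 364 and 2220 ± 1095.5 CPM and Dnajb1 1159 ± 334 and 1340.1 ± 511 CPM (SD, n = 5 each). The cytokine genes linked to dissociation, with 0 calls of 10 tested and 11 listed, had a median of -0.38 and 8 of 10 below 0, as were 51.6% of all genes tested.

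The chemokine genes led that list. Ccl3 read 2704, 1715, 1601, 1138 and 176 CPM with vehicle and 381, 816, 546, 114 and 1101 CPM with GW2580 (log2 fold change -1.31, SE 0.66, p = 0.0675, adjusted p = 0.367 in edgeR, exact permutation p = 0.214). Of the vehicle libraries, 4 of 5 were above all GW2580 libraries, and Vehicle 5 was below all but GW2580 4. Ccl4 had a log2 fold change of -1.04 (unadjusted p = 0.156 in edgeR) and Ccl2 one of -1.18 (unadjusted p = 0.0780 in edgeR), with Vehicle 5 again at 335.5 and 35.1 CPM against 2689 to 4942 and 265 to 424 CPM in the other vehicle libraries. Monocyte and granulocyte markers summed to 26150, 7353, 3079.7, 2492 and 425 CPM in Vehicle 1 to 5, the same order as Ccl3. Among GW2580 libraries the order was not the same. The marker sum was highest in GW2580 2 (10733 CPM) and then GW2580 5 (5751 CPM), whereas Ccl3 was highest in GW2580 5 and then GW2580 2. GW2580 3 had a lower marker sum than GW2580 1 (525 against 3135 CPM) but more Ccl3 (546 against 381 CPM). The median log2 fold change of these markers was -1.21, and their part in the chemokine values was not tested. Neuronal activity genes, which neurons rather than microglia use, gave 0 calls of 6 and a median of -0.26. Arc, the best known of them, was highest in Vehicle 2 (25.3 CPM), Vehicle 5 (34.1 CPM) and GW2580 4 (30.6 CPM) and 2.47 to 9.17 CPM elsewhere, and these are the libraries with the highest glial sums. The list as a whole did not share this order. Homer1 was highest in Vehicle 5 (38.5 CPM) but read 20.7 CPM in Vehicle 2 and 21.0 CPM in GW2580 4. Inhba was lowest in Vehicle 5 (4.10 CPM).

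**Figure D5:**
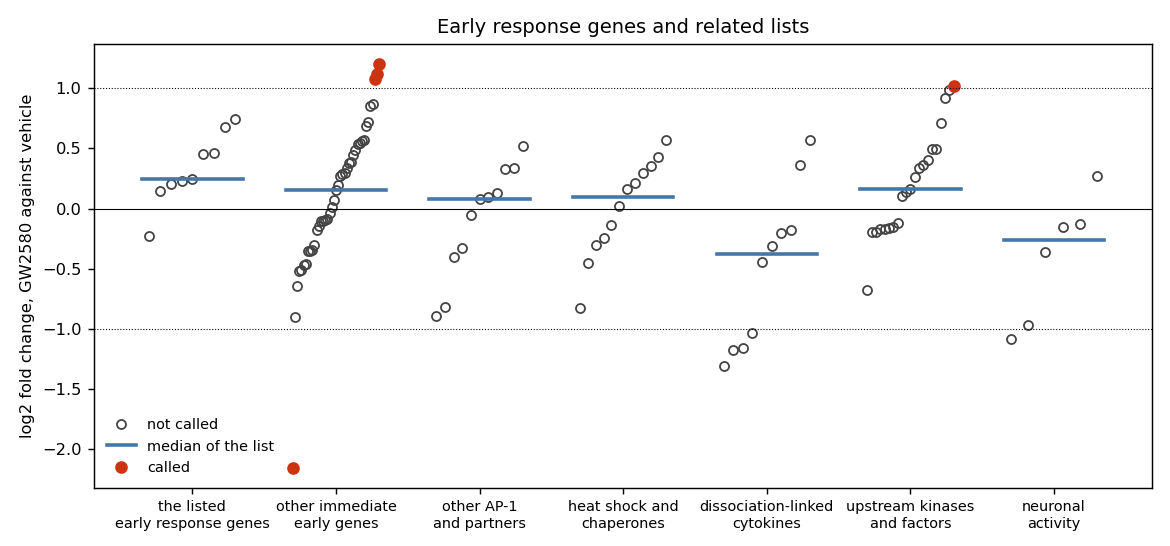
Log2 fold change, GW2580 against vehicle, of each tested gene in the early response list and 6 related lists, with called genes in red, the median of each list as a blue line and dotted lines at a fold change of 2. The medians lie between -0.38 (cytokines) and 0.24 (the early response members), and red points appear only among the other immediate early genes and the upstream kinases.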

How the data were processed

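The 10 genes and all lists were chosen with earlier results of these data known. The authors aligned read pairs to GRCm38 with STAR and deposited, per library, raw counts of uniquely aligned fragments per RefSeq gene (featureCounts 1.6.3 per the file headers, exons, strand ignored), with the counts of fragments in each class. SMART-Seq libraries carry no molecular identifiers, so fragments are not independent molecules. Gene symbols and positions came from RefSeq's GRCm38.p6 table.

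Genes were tested where 3 or more libraries exceeded 1 CPM; their counts were scaled by TMM and fitted with edgeR 4.0.16 (R 4.3.3, quasi-likelihood F test, treatment as the only term). Log2 CPM used a prior count of 2. RPKM used the deposited exon lengths. Genes outside the 10 were named as the 3 of highest mean CPM and up to 3 called in each list. Exact permutation tests were two-sided and covered every assignment of 5 libraries to a group. The alternatives were DESeq2 1.42.0, voom from limma 3.58.1, 3 more scalings, 2 more filters, terms for sex, replicate number and library composition, and fits that left out libraries. The fits were tested on simulated data. Ratios, correlations with library size alone and the fit without GW2580 3 and GW2580 4 were chosen after seeing the data. Python 3.11.15 with numpy 2.4.6, pandas 2.3.3, scipy 1.17.1 and matplotlib 3.10.9 was used for the rest.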

Additional observations from a re-analysis of the deposited data

Results flagged for a closer look

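Each of the 9 early response genes was searched in each group of 5 for a library far from the others, by the gap to its nearest neighbour as a share of the range of log2 CPM. Of the 18 gene and group pairs, 3 passed Dixon's critical value of 0.71, where chance gives about 1 in 20. The genes share the same libraries, so these searches are not independent, and Fos and Ier2 varied closely together (Pearson r = 0.97 after TMM). In the vehicle group Vehicle 5 was the lowest library for Fos (share 0.731) and for Ier2 (0.786), at 3717 CPM and 968 CPM. In the GW2580 group GW2580 4 was the lowest library for Atf3 (0.740), at 405 CPM. Vehicle 5 had high astrocyte and oligodendrocyte sums (1707 and 4357 CPM), and GW2580 4 had the largest TMM factor (1.61) and the largest share of unique fragments on no exon (70.8%). Their part in these low values was not tested.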

How the results depend on the processing

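Over 25 alternatives, the log2 fold changes of Jun (0.36 to 0.82), Egr1 (0.41 to 0.94), Junb (0.15 to 0.63) and Atf3 (0.20 to 0.69) stayed above 0 and were never called. The direction turned without GW2580 3 for Fos, Dusp1, Nr4a1 and Ier2 and without Vehicle 3 for Fosb. With 1 library left out, Fos ranged from -0.013 to 0.40, Fosb from -0.49 to 0.011, Dusp1 from -0.081 to 0.40, Nr4a1 from -0.011 to 0.98 and Ier2 from -0.085 to 0.34. Ier2 also turned without GW2580 2 (-0.059), without Vehicle 5 (-0.0021), without Vehicle 2 and Vehicle 5 (-0.048) and with the glial and neuronal mean as covariate (-0.0028). The count of members called was 0 in every alternative but the one without Vehicle 5 and GW2580 5, where it was 1, Nr4a1 (1.09). The count of members with p under 0.05 for sex was 0, and 0 to 1 with 1 library left out (1, Fosb, without GW2580 4); the interaction gave 0 throughout.

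Of all genes 3046 were called, 4802 without the filter on low counts, 1730 with the percentage on no exon as covariate, 6057 without Vehicle 5 and GW2580 5 (4844 at an adjusted p under 0.05 in edgeR, these libraries having been left out because each lay nearer the other group), 1185 without GW2580 3 and GW2580 4, and 1684 (without GW2580 1) to 4848 (without GW2580 5) with 1 library left out. The 7 related lists gave 5 calls, 2 with limma-voom, 2 with the replicate block, 20 without Vehicle 5 and GW2580 5, 13 without Vehicle 2 and Vehicle 5, 1 without GW2580 3 and GW2580 4, and 1 (without GW2580 3) to 17 (without Vehicle 5) with 1 library left out. Beyond what fewer libraries or fewer filters give by construction, the cause was not tested. Replicate numbers did not pair the libraries: same-numbered libraries correlated at -0.39 to 0.13 in their deviations, 1 of 5 best with its own number, and with the number as a block 2554 genes and 0 members were called.

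With 5 mice per group the SE of a member's log2 fold change was 0.42 to 0.54, so a 2-fold change lies near the limit of what could be called. Depth did not limit the 9 members tested, which had at least 1052 counts in every library.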
